A study of Mus musculus with 2 samples.

Results

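Serpins are a family of proteins that share a single fold, and most of them block proteases. In the mouse urinary bladder 63 genes carried a symbol made of "Serpin", a clade letter from a to i and a number, and these 63 of the 43346 Ensembl gene rows are described here. Bladder tissue came from littermates of mixed sex of the strain C57BL/6J, adults aged 8 weeks. RNA with a poly-A tail and a size above 200 nucleotides, cleared of ribosomal RNA, was read in 2 strand-specific libraries that also held spike-in RNA. The libraries, replicate 2 and replicate 1, form a single group with no treatment and no mutant, so no condition was compared and no test between groups was possible. Both name the same donor entry, so the spread between them may be partly technical. Expected counts on genes totalled 105057347 in replicate 2 and 99367453 in replicate 1, where 3 counts correspond to 0.0286 CPM in replicate 2 and 0.0302 CPM in replicate 1 (CPM is the count scaled to the library total), a floor that covers counting error only.

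An inhibitory serpin offers a protease an exposed stretch of chain, the reactive loop, as bait. When the protease cuts the loop, the cut end folds into the body of the serpin and the enzyme is dragged along and trapped. The hinge, the part of the loop that inserts, is made of small residues in inhibitors, while the residues after it meet the protease and set which enzyme is caught. Some family members have lost inhibition and act as a chaperone, a hormone carrier or a signalling protein. Serpins are known, among other roles, as regulators of complement, of plasminogen activation and of matrix assembly, and as guards against proteases released inside cells.

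The coding sequences of the loops show which members carry the hinge and how near relatives differ behind it. The hinge was searched near the end of each protein as glutamate, any residue, glycine, then threonine, serine or valine, any residue, and 3 small residues. It was found in 48 of the 62 members with a coding sequence (77.4%) and in 111 of all 21952 genes with one (0.506%). Of the 15 members at 1 TPM (a level scaled for transcript length and for the library total) or more in both libraries, 12 had it. The 3 that lacked it were Serpinh1, Serpinf1 and Serpinb5, all known as serpins without protease inhibition. The stretches of 60 bases below run 5′ to 3′ along the coding strand of GENCODE M21 transcripts on GRCm38 (mm10), and the capitals mark the 9 codons that start with the glutamate of the hinge.
Serping1: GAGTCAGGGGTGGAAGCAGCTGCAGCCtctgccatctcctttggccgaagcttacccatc
Serpine2: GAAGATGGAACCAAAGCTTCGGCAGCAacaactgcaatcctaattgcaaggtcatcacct
Serpina3n: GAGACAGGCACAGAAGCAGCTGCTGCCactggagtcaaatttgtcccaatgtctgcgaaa
Serpina3g: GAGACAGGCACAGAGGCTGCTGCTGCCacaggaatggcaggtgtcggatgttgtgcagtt
Serpina3c: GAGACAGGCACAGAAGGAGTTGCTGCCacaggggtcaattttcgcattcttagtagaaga
Serpina3m: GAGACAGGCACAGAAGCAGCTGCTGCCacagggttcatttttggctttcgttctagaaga
Serpinb6a: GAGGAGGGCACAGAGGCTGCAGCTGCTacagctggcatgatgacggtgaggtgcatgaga
Serpinb6b: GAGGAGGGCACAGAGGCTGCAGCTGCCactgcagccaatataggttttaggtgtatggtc
Serpinb9: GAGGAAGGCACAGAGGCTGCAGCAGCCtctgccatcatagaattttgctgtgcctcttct
Serpinb9b: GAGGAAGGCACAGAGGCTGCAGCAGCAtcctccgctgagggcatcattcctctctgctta

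Within a subfamily the printed capitals are nearly alike and the lower-case bases are not. Every printed loop came from a member that matched the hinge pattern, so part of the likeness of the capitals was set by the search. Members without the pattern, such as Serpina3a, Serpina3b and Serpina3j, were not compared. Compared base by base without gaps, Serpina3n and Serpina3g differed at 2 of the 27 hinge bases and at 17 of the 33 bases that follow. Serpina3n and Serpina3m had the same 27 hinge bases and differed at 16 of the next 33. Serpinb6a and Serpinb6b differed at 1 hinge base and 15 later ones, and Serpinb9 and Serpinb9b at 1 and 23. The closest loops printed were those of Serpina3c and Serpina3m, with 2 hinge differences and 7 later ones. The loop of Serping1 lies at chr2:84765667-84765726 on the minus strand and that of Serpina3n at chr12:104413442-104413501 on the plus strand, both within an exon, while the loop of Serpine2 spans an exon junction.

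Serpin transcripts made up 0.134% of the gene TPM in replicate 2 and 0.148% in replicate 1, and a few genes held nearly all of it. The summed serpin level was 1237 TPM in replicate 2 and 1393 TPM in replicate 1. Serping1, Serpinh1 and Serpinb6a together held 80.9% of it in replicate 2 and 79.3% in replicate 1. With Serpinf1 and Serpina3n added, the share was 91.9% in replicate 2 and 93.4% in replicate 1. At 1 TPM or more in both libraries, 15 of the 63 members (23.8%) were detected, against 32.7% of all Ensembl gene rows and 60.5% of protein-coding genes. Of the 15, 11 had a mean of at least 10 TPM. Levels were ordered over 14 neighbouring pairs, and in 7 of these the ranges of the 2 libraries overlapped. These were the 6 pairs among the 7 genes from Serpinb9 down to Serpinb8, and Serpinf1 with Serpina3n.

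**Figure D1:**
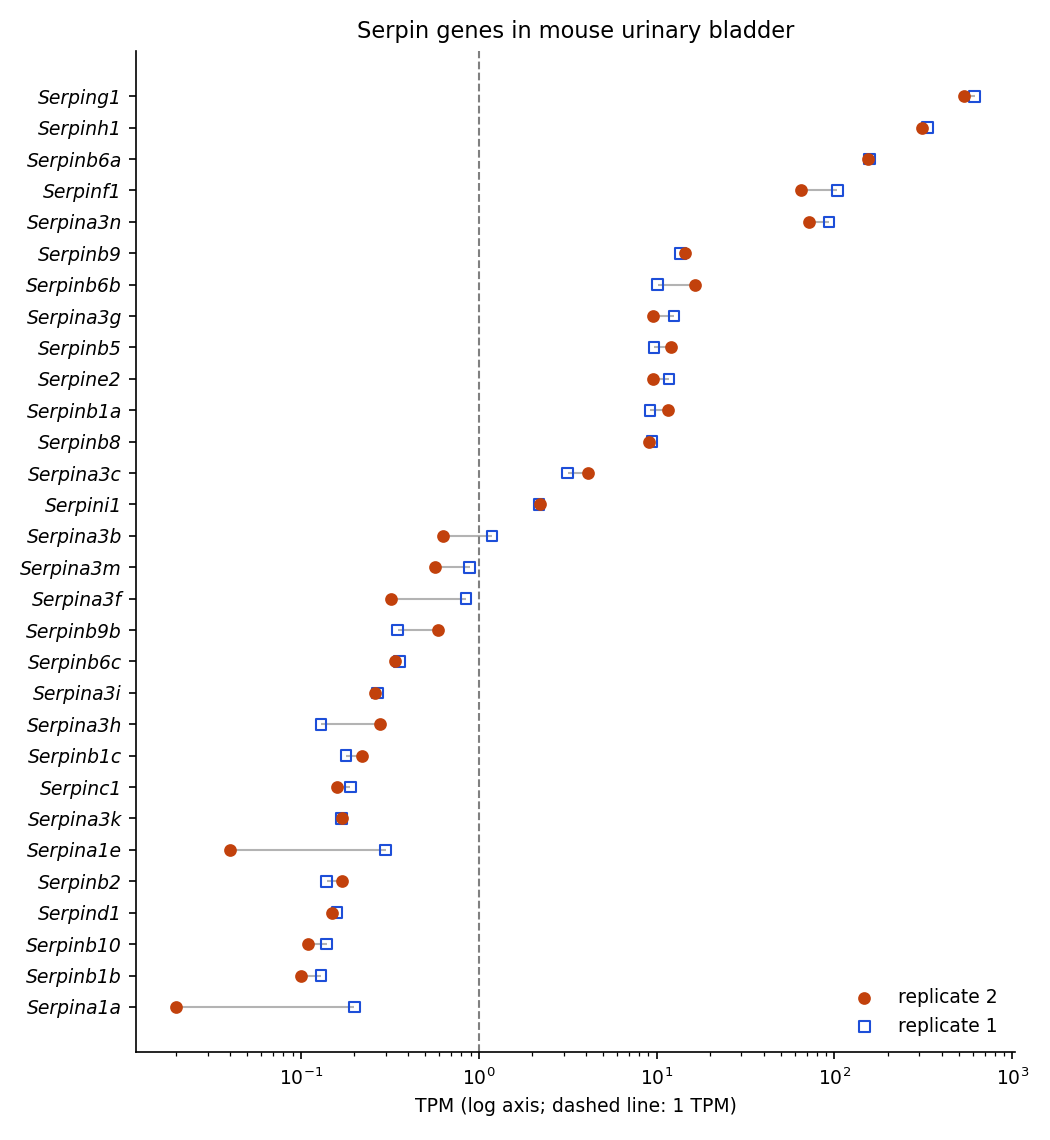
Level of the named serpin genes that averaged 0.1 TPM or more, on a log axis, with replicate 2 as filled circles and replicate 1 as open squares, ordered by the mean. The 14 genes from Serping1 to Serpini1 lie to the right of the dashed line at 1 TPM in both libraries, and Serpina3b crosses it only in replicate 1.

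Among the secreted inhibitors, Serping1 stood first in the family. It encodes the C1 inhibitor, which inactivates the complement proteases C1r and C1s and plasma kallikrein. It had 534 TPM in replicate 2 against 614 TPM in replicate 1, a mean of 574 ± 56.5 TPM (SD, n = 2), and ranked 184 among protein-coding genes. The gene lies on chromosome 2 from 84765387 to 84775444. Its level exceeded those of C1s1 and C1ra in both libraries. C1s1, the mouse gene for C1s, had 278 TPM in replicate 2 against 229 TPM in replicate 1, and C1ra, for C1r, had 61.0 TPM and 92.1 TPM. The log2 ratio of Serping1 over C1s1 was 1.18 ± 0.34 and that over C1ra 2.93 ± 0.28 (SD, n = 2). By mm9 RPKM these ratios were 0.62 and 1.72, the same in direction but smaller. Of 11 genes of the C1 and lectin pathways, 7 were detected. C1qb, a chain of the recognition part of C1, had 131 TPM in replicate 2 against 112 TPM in replicate 1. C1qa, another chain, had 106 and 90.4 TPM. C1rb, C1s2, Masp1 and Masp2 stayed under 1 TPM in both libraries, but C1rb and C1s2 are near copies of C1ra and C1s1, and their expected counts were not whole numbers, so reads may have been divided between them.

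Serpine2 (protease nexin 1), which blocks thrombin and the plasminogen activators, lay below the activators. It had 9.60 TPM in replicate 2 and 11.7 TPM in replicate 1, a mean of 10.7 ± 1.5 TPM. Plau, the urokinase gene, had 60.4 TPM in replicate 2 against 51.1 TPM in replicate 1, and Plat, the tissue activator gene, had 29.9 and 21.9 TPM. The log2 ratio of Serpine2 was −2.34 ± 0.36 over Plau and −1.23 ± 0.51 over Plat (SD, n = 2), so it was lower than both in each library. Plat over Plau gave −1.10 ± 0.14. Of the 15 genes of plasminogen activation measured, 13 were detected, led by Lrp1, the receptor that clears serpin and protease complexes, with 182 TPM in replicate 2 against 256 TPM in replicate 1. Plgrkt, a plasminogen receptor, followed at 81.6 and 62.2 TPM. Plg, which encodes plasminogen itself and is mainly made in liver, and F12 were under 1 TPM in both libraries.

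**Figure D2:**
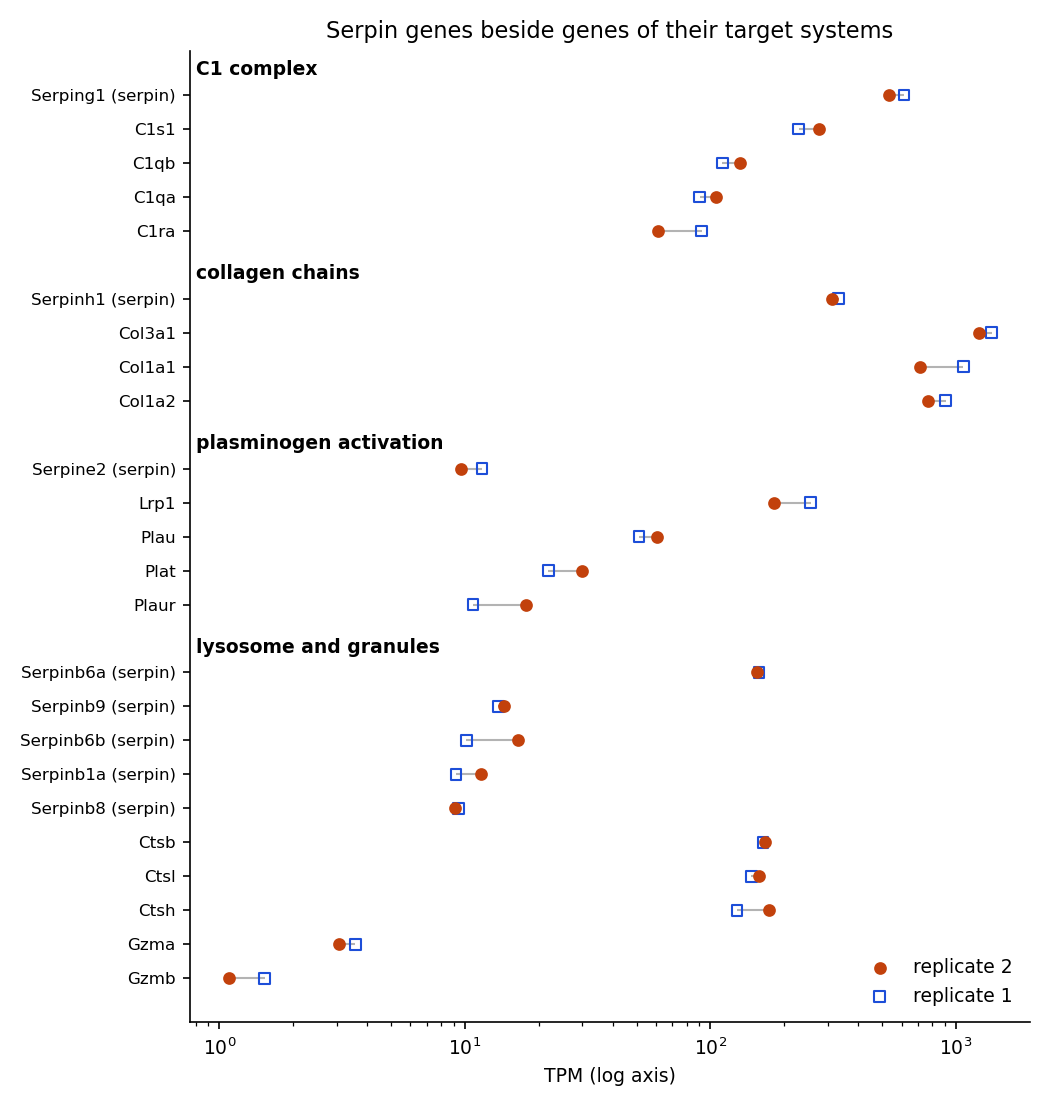
Level in TPM, on a log axis, of serpin genes and genes of the systems they act on, with replicate 2 as filled circles and replicate 1 as open squares. Serping1 lies above C1s1 and C1ra, Serpinh1 below the 3 collagen genes drawn, and Serpine2 below Plau and Plat in both libraries.

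Serpinc1, Serpind1, Serpina10 and Serpina5, which encode serpins that restrain clotting in plasma, were under 1 TPM in both libraries. Serpinc1, the gene for antithrombin, had 36 expected counts in replicate 2 and 38 in replicate 1, or 0.16 and 0.19 TPM. Serpind1, for heparin cofactor II, had 23 counts in each library, or 0.15 TPM in replicate 2 and 0.16 TPM in replicate 1. Serpina10 and Serpina5, which encode the protein Z dependent inhibitor and the protein C inhibitor, had no expected count in either library. Of 14 listed genes for clotting proteases, receptors, cofactors and inhibitors other than serpins, 6 were detected. They were led by F3, the tissue factor gene, with 69.5 TPM in replicate 2 against 47.6 TPM in replicate 1, followed by Pros1 at 23.3 and 27.4 TPM and by Tfpi at 16.4 and 13.5 TPM. The protease genes F2, F7, F9, F10, F11 and Proc were under 1 TPM in both, as were the thrombin receptor genes F2rl2 and F2rl3.

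Of the Serpina3 subfamily, relatives of human antichymotrypsin that are multiplied in mouse, Serpina3n held most of the signal. Serpina3n, an acute-phase inhibitor of granzyme B and neutrophil proteases, had 72.0 TPM in replicate 2 and 93.0 TPM in replicate 1, a mean of 82.5 ± 14.8 TPM. Serpina3g had 9.50 TPM in replicate 2 and 12.6 TPM in replicate 1 (mean 11.03 ± 2.16 TPM), and Serpina3c had 4.10 and 3.17 TPM (mean 3.63 ± 0.658 TPM). The order of these 3 held in both libraries, with no overlap. The other 8 members of the subfamily had means under 1 TPM. Among them Serpina3b had 0.63 TPM in replicate 2 and 1.19 TPM in replicate 1, Serpina3m 0.57 and 0.89 TPM, and Serpina3f 0.32 and 0.85 TPM. Serpina3m shares 89.8% of its aligned coding bases with Serpina3c but had a level several times lower. In all, the 11 Serpina3 genes held 87.9 TPM in replicate 2 and 112 TPM in replicate 1, or 7.11% and 8.06% of the serpin total.

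Serpinh1, the second gene of the family, encodes the chaperone HSP47, which holds procollagen helices in the endoplasmic reticulum and inhibits no protease. It had 312 TPM in replicate 2 and 332 TPM in replicate 1, a mean of 322 ± 14.6 TPM, and ranked 303 among protein-coding genes. Of the 7 fibrillar collagen genes of its cargo that were listed, 3 were higher than Serpinh1 and 4 were lower in both libraries. Col3a1 had 1240 TPM in replicate 2 and 1396 TPM in replicate 1, Col1a1 716 and 1071 TPM, and Col1a2 766 and 908 TPM. The log2 ratio of Serpinh1 was −1.44 ± 0.35 over Col1a1 and −2.03 ± 0.06 over Col3a1 (SD, n = 2). By the deposited mm9 RPKM the ratio over Col3a1 was −1.01 and that over Col1a1 −1.49, so which of these collagens lay further above Serpinh1 depends on the table. Col5a1, a minor fibril collagen, had 45.0 TPM in replicate 2 and 73.6 TPM in replicate 1, Col5a2 49.1 and 63.1 TPM, and Col11a1 5.13 and 6.15 TPM. Col2a1, of cartilage, was under 1 TPM in both libraries.

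Serpinf1 encodes pigment epithelium-derived factor, a secreted serpin that binds collagen and restrains vessel growth rather than proteases. It had 64.5 TPM in replicate 2 and 104 TPM in replicate 1, a mean of 84.1 ± 27.8 TPM, the widest spread in TPM after Serping1. Its range contained that of Serpina3n, so the places of Serpinf1 and Serpina3n in the order cannot be told apart. Serpinf2, its neighbour in name and the gene for the plasmin inhibitor of plasma, had 13 counts in replicate 2 and 8 in replicate 1. Serpinb5, known as maspin and expressed in stratified and mammary epithelia, had 12.1 TPM in replicate 2 and 9.65 TPM in replicate 1, a mean of 10.9 ± 1.75 TPM. Against Krt5, a keratin of the basal urothelium with 366 TPM in replicate 2 and 363 TPM in replicate 1, its log2 ratio was −5.01 ± 0.21. Serpini1, the neuroserpin gene, had 2.20 TPM in replicate 2 and 2.18 TPM in replicate 1. Serpinf1, Serpinh1 and Serpinb5 together account for the detected members that lack the hinge printed above.

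The intracellular serpins of clade b, which mostly stay in the cytosol and protect a cell from its own or from leaked proteases, held 17.8% of the serpin TPM in replicate 2 and 15.2% in replicate 1. Most of it was Serpinb6a, an inhibitor of cathepsin G and other serine proteases, with 155 TPM in replicate 2 and 158 TPM in replicate 1 (mean 156 ± 2.02 TPM). Serpinb6b, its near copy with 86.4% identity over the coding bases, had 16.5 and 10.1 TPM, and the log2 ratio of Serpinb6a over Serpinb6b was 3.54 ± 0.50 (SD, n = 2). Serpinb9, the granzyme B inhibitor gene, had 14.4 TPM in replicate 2 and 13.7 TPM in replicate 1 (mean 14.1 ± 0.552 TPM). Serpinb1a, whose product blocks neutrophil elastase and cathepsin G, had 11.6 and 9.20 TPM (mean 10.4 ± 1.70 TPM). Serpinb8, an inhibitor of furin in human cells, had 9.09 and 9.41 TPM (mean 9.25 ± 0.226 TPM). Of their near copies by sequence, Serpinb9b and Serpinb1b were low. Serpinb9b had 0.59 TPM in replicate 2 against 0.35 TPM in replicate 1, and Serpinb1b 0.10 and 0.13 TPM. The log2 ratio was 3.92 ± 0.20 for Serpinb9 over Serpinb9b and 4.14 ± 0.28 for Serpinb1a over Serpinb1b, values that the pseudocount of 0.5 TPM makes smaller. By mm9 RPKM with the same pseudocount they were 2.33 and 2.12.

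Transcripts of granule proteases, which include the known targets of Serpinb9 and Serpinb1a, were scarce, and those of lysosomal cysteine cathepsins were not. Of 13 granule genes 6 were detected, all under 7 TPM, led by the mast cell proteases Cma1 (6.48 TPM in replicate 2, 6.91 TPM in replicate 1), Mcpt4 (5.35 and 6.60 TPM) and Tpsb2 (5.21 and 6.18 TPM). Gzmb, the target of Serpinb9 and Serpina3n, had 1.09 TPM in replicate 2 and 1.53 TPM in replicate 1. Elane, Prtn3 and Ctsg, the neutrophil proteases, and Gzmc, Gzmk and Prf1 were under 1 TPM in both libraries. All 6 neutrophil markers looked at, S100a8, S100a9, Ly6g, Elane, Cxcr2 and Mpo, were under 1 TPM too, with a summed level of 1.5 TPM in replicate 2 and 1.92 TPM in replicate 1. All 7 cysteine cathepsins were detected, with Ctsb at 167 and 164 TPM, Ctsl at 158 and 147 TPM and Ctsh at 174 and 128 TPM, values near that of Serpinb6a. Of 11 tissue kallikreins, Klk8 alone was detected, with 3.31 TPM in replicate 2 against 2.95 TPM in replicate 1, while Klk1, Klk4, Klk5, Klk6, Klk7, Klk10, Klk11, Klk12, Klk13 and Klk14 were under 1 TPM in both.

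Among inhibitors of other folds, Cst3 exceeded every serpin in both libraries and Wfdc2 lay near Serping1. Cst3, for the cathepsin inhibitor cystatin C, had 900 TPM in replicate 2 and 807 TPM in replicate 1, Wfdc2 603 and 542 TPM, and Spint2 434 and 392 TPM. The 13 such genes listed summed to 2306 TPM in replicate 2 and 2031 TPM in replicate 1, above the serpin sum of 1237 and 1393 TPM in the same libraries. Of them, A2m, Cst6, Csta1, Spink1 and Spink5 were under 1 TPM in both. Agt, a serpin by fold whose symbol lies outside the rule, had 1.32 TPM in replicate 2 and 0.95 TPM in replicate 1.

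Of the 63 genes, 51 lie in 3 clusters of related copies, and each cluster had a few detected genes among others that were low or had no count. On chromosome 1 (106861173 to 107610484), 2 of 12 clade b genes were detected, and they were the ones at the ends, Serpinb5 and Serpinb8. Between them, the 4 copies Serpinb3a, Serpinb3b, Serpinb3c and Serpinb3d, relatives of the human squamous cell carcinoma antigens, had no expected count in either library. On chromosome 12 (103614786 to 104414329), 3 of 24 clade a genes were detected, namely Serpina3c, Serpina3g and Serpina3n, all from the Serpina3 part. On chromosome 13 (32842092 to 34002794), 4 of 15 clade b genes were detected, Serpinb1a, Serpinb6b, Serpinb9 and Serpinb6a. Serpinb1a and Serpinb6a are the end genes there. The Serpinb9 copies Serpinb9c, Serpinb9d, Serpinb9e and Serpinb9g had no count, and Serpinb9f had 4 counts in replicate 2 and 0 in replicate 1. Outside the clusters, 6 of 12 serpin genes were detected.

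**Figure D3:**
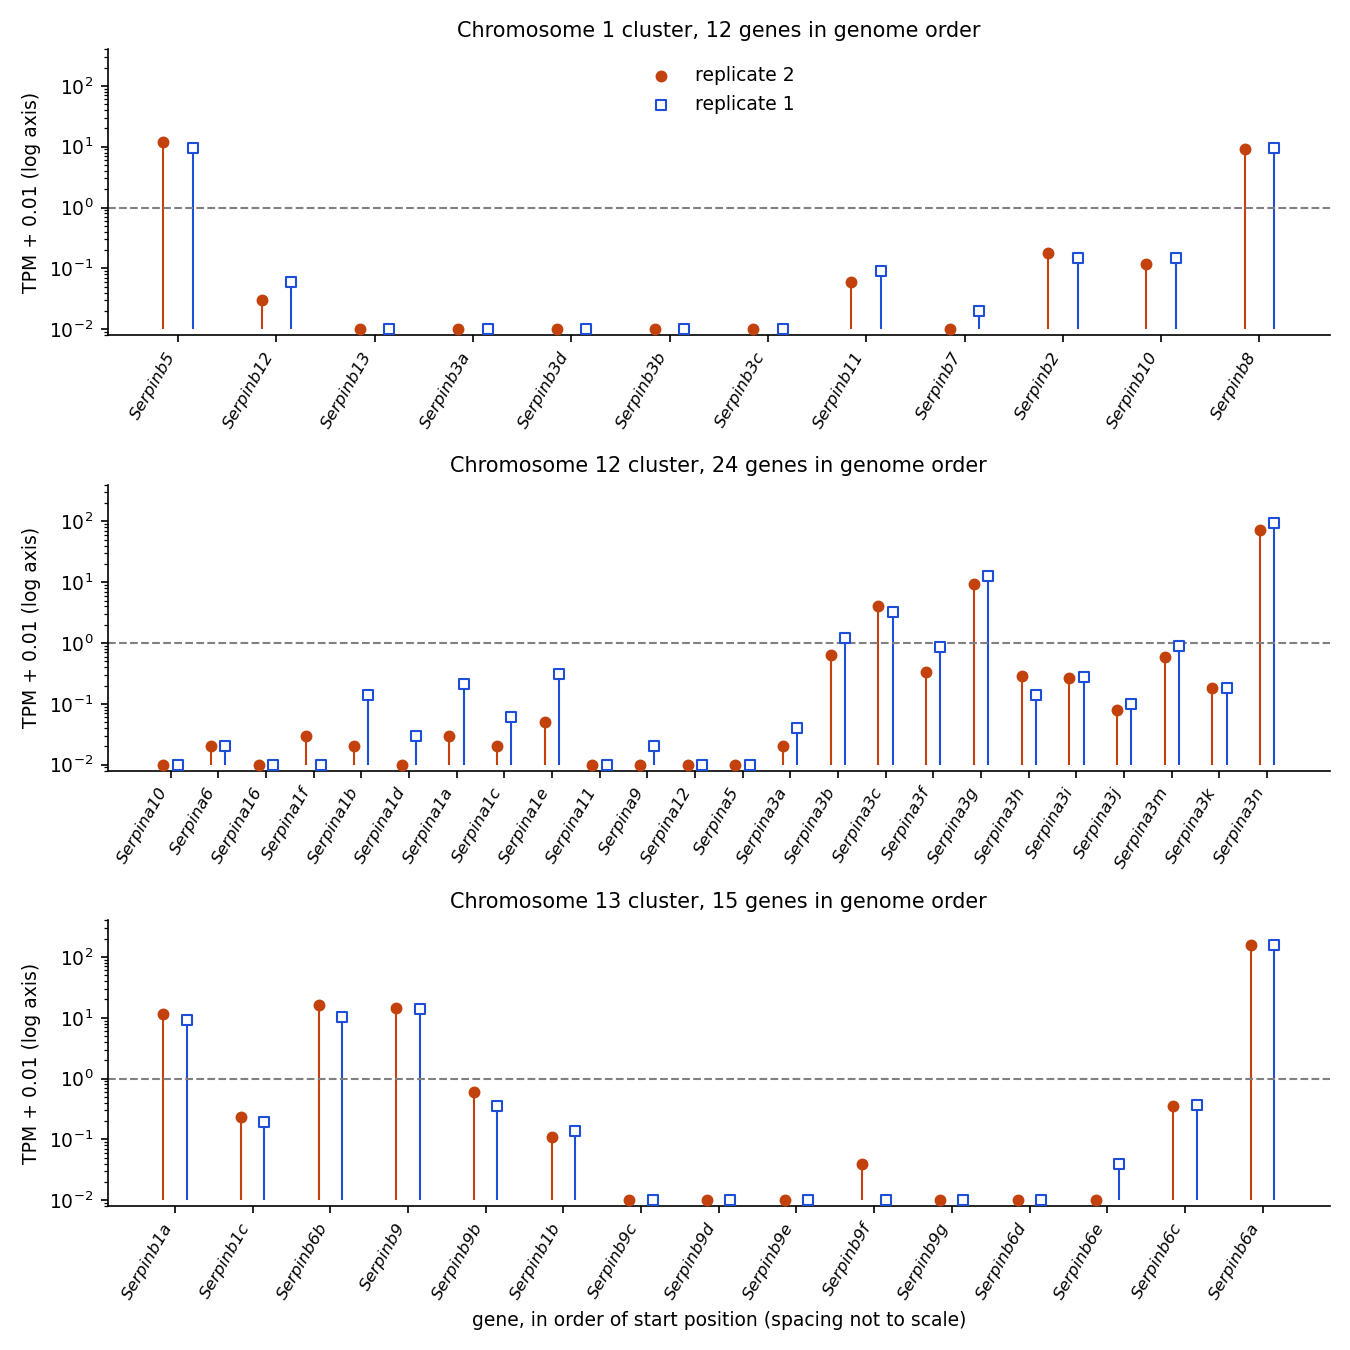
TPM plus 0.01 on a log axis for every gene of the 3 serpin clusters, in genome order, with replicate 2 as filled circles and replicate 1 as open squares to its right. Points on the 0.01 baseline have 0 TPM, and the dashed line marks about 1 TPM. Detected genes sit at both ends of the chromosome 1 and chromosome 13 clusters and in the Serpina3 part of the chromosome 12 cluster.

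Below 1 TPM lay 48 members, of which 33 had some expected count and 15 (23.8%) had none in either library. Among protein-coding genes 17.8% had none. At this depth a count of 0 leaves room for up to 3 counts a library. Besides those named, Serpinb6c (32 counts in replicate 2, 31 in replicate 1), Serpina3i (25 and 24), Serpina3k (26 and 25), Serpina3h (24 and 9.92) and Serpinb2 (22.3 and 8) reached 20 counts in a library. Serpinb2 encodes plasminogen activator inhibitor 2, and its gene overlaps Serpinb10 on the same strand by 6476 bases in the annotation. Serpina3m and Serpina3k overlap by 7659 bases. Reads of these pairs could have been assigned to either. Expected counts were not whole numbers for Serpinb2 and Serpinb10, and were whole for Serpina3m and Serpina3k.

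Serpina1a to Serpina1e, which encode the elastase inhibitor alpha-1 antitrypsin made by hepatocytes, were low in both libraries. All 5 had fewer counts in replicate 2. Serpina1e had 4 counts in replicate 2 and 26 in replicate 1, Serpina1a had 2 and 17.8, and Serpina1b had 1 and 11.7. Serpina1c had 1 count in replicate 2 and 4.46 in replicate 1, and Serpina1d had 0 and 2.06. Serpina1f shares the name, but its closest family member by coding bases was Serpina3f, at 62.5% identity. It had 2 counts in replicate 2 and 0 in replicate 1. Alb, the albumin gene, had 111 counts in replicate 2 and 478 in replicate 1, Ahsg 12 and 125, Fgb 3 and 48, Fga 0 and 27, Apoh 10 and 26, Apoa1 27 and 39, and Apoa2 17 and 29. The remaining hepatocyte markers listed, Ttr (2421 counts in replicate 2, 1915 in replicate 1) and Cyp2e1 (7145 and 3962), ran the other way. Serpinc1, Serpind1 and Serpina3k, also known from liver, had nearly the same counts in both libraries. The 9 hepatocyte markers summed to 82.4 TPM in replicate 2 and 63.3 TPM in replicate 1, almost all from Cyp2e1 and Ttr. The part of hepatocyte RNA in the Serpina1 counts was not tested.

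**Figure D4:**
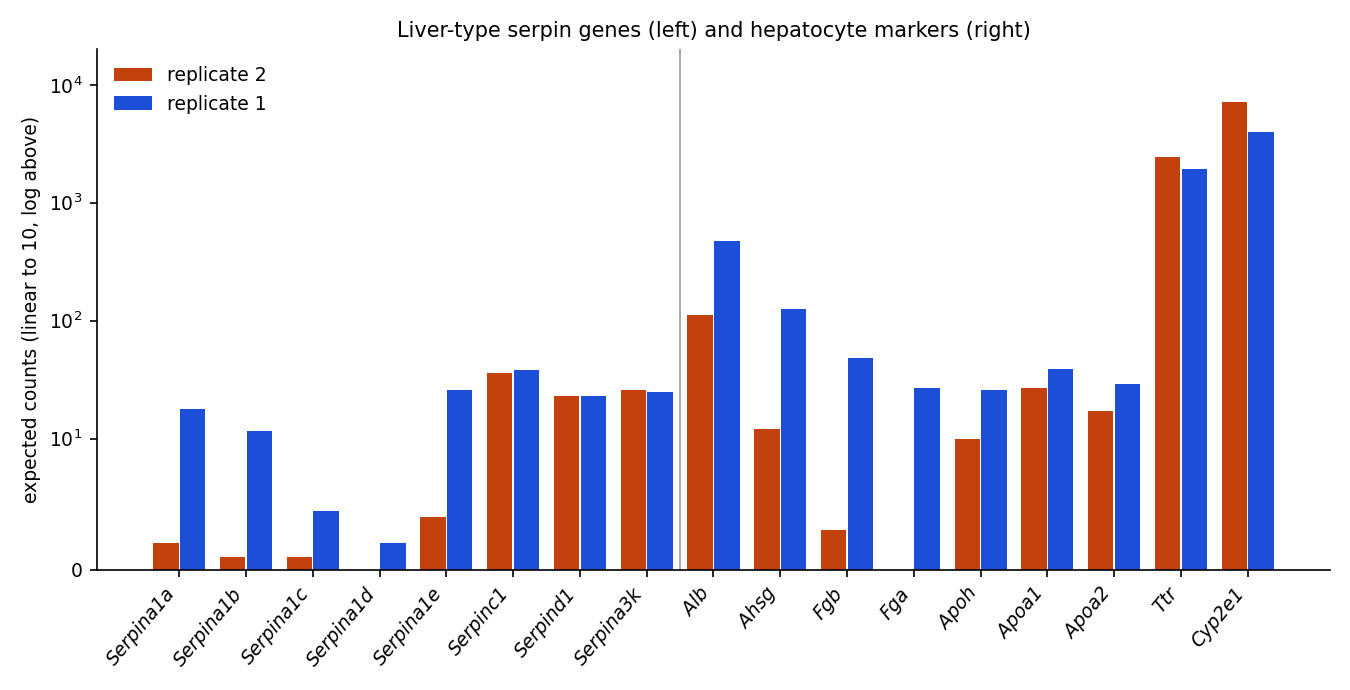
Expected counts of Serpina1a to Serpina1e and 3 other liver-type serpin genes, left of the vertical line, and of 9 hepatocyte markers, right of it, with replicate 2 left of replicate 1 for each gene. The axis is linear up to 10 and logarithmic above. Serpina1a to Serpina1e, Alb, Ahsg, Fgb, Fga, Apoh, Apoa1 and Apoa2 are higher in replicate 1, while Serpinc1, Serpind1 and Serpina3k are nearly level and Ttr and Cyp2e1 are higher in replicate 2.

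Between the libraries no detected serpin gene was 2-fold apart. With replicate 2 over replicate 1 on the log2(TPM + 0.5) scale, which understates ratios of low genes, 0 of the 15 members with a mean of at least 1 TPM were 2-fold or more apart, against 1.58% of the 14533 genes past the same filter, a background at which 0 of 15 says nothing particular of serpins. Of those genes 0.447% were 2-fold higher and 1.14% were 2-fold lower in replicate 2. With a single library a side there was no replicate check of these ratios and no test. The median log2 ratio was −0.03 over the 15 members and 0.08 over all genes. In replicate 2, 7 members were higher and 8 were lower, and relative to the median of all genes 5 were above and 10 below.

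Serpinf1, at −0.68, and Serpinb6b, at 0.68, were the 2 members outside the central 90% of all genes, which ran from −0.56 to 0.54. Serpina3g at −0.39 and Serpina3n at −0.37 lay inside it. Some lists of other genes lay to one side of the median of all genes. All 8 smooth muscle markers were detected and lay below the median of all genes, with a median of −0.32 and sums of 25331 TPM in replicate 2 against 27965 TPM in replicate 1, and all 6 detected fibrillar collagens did too, with a median of −0.30. All 7 markers of superficial urothelium were detected and lay above it, with a median of 0.53 and sums of 6771 TPM in replicate 2 and 4717 TPM in replicate 1. All 8 adipocyte markers lay above it as well, with a median of 1.01, sums of 2461 TPM in replicate 2 against 1325 TPM in replicate 1, and 4 of them 2-fold or more higher. The 3 mesothelial markers all exceeded the all-gene median too, and 1 of them was 2-fold or more higher in replicate 2. So did the 8 inhibitor genes of other folds past the filter. The 3 mast cell and the 3 skeletal muscle markers past the filter were all lower than the all-gene median. The 6 granule protease genes past it were lower as well, and Cma1 and Mcpt4 are also mast cell markers. Some other lists were mixed. Of 5 fibroblast markers 2 lay above the median of all genes (Lum at 0.42 and Dcn at 0.18) and 3 below it (Col1a1 at −0.58, Col3a1 at −0.17 and Pdgfra at −0.59). Of 5 endothelial markers 2 lay above and 3 below. Of the 4 genes listed for basal urothelium past the filter, 1 lay above (Krt7 at 0.17). The 3 below were Krt5 at 0.01, Krt15 at −0.02 and Trp63 at 0.05. In bulk tissue, fewer cells of a type and less RNA per cell cannot be told apart. Across the 14533 genes the ratio was also lower for longer transcripts (Spearman's rho −0.34 across genes, which are not independent replicates). The part of tissue make-up and of gene length in the serpin ratios was not tested.

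**Figure D5:**
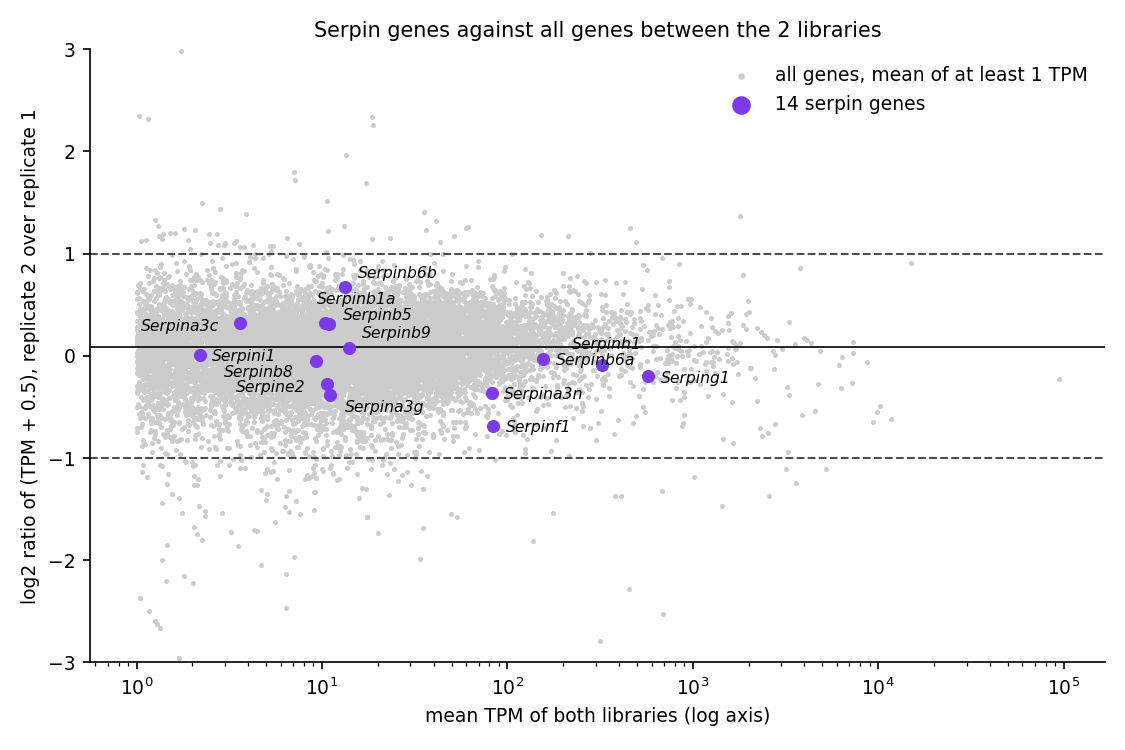
Log2 ratio of TPM plus 0.5, replicate 2 over replicate 1, against mean TPM on a log axis for all genes that averaged 1 TPM or more (grey) and 14 serpin genes among them (purple, named). Dashed lines mark 2-fold, the solid line is the median of all genes, and 22 grey genes lie outside the axis. All 14 named serpin genes lie between the dashed lines.

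Most detected serpins drew their level from a single transcript, but Serpinf1, Serpinb6b and Serpinb8 did not. Among serpin genes that averaged 5 TPM or more, Serpinb9-201 held 98.8% of its gene's TPM in replicate 2 and 97.7% in replicate 1. Serpinh1-201 held 92.8% in replicate 2 and 92.6% in replicate 1, Serpine2-201 93.6% and 90.9%, Serpinb5-201 93.4% and 87.0%, and Serpinb6a-202 85.5% and 85.6%. Serpinb1a, with 2 transcripts to choose from, was assigned to Serpinb1a-201 in full. Serpina3n had only 1 transcript, so its share of 100% was fixed in advance. Serping1 was divided between the coding Serping1-201 (87.5% in replicate 2, 82.9% in replicate 1) and Serping1-203 (12.3% and 16.9%), a shorter form that M21 annotates as a processed transcript with no coding sequence. Serpina3g was divided between Serpina3g-201 (70.2% in replicate 2, 67.9% in replicate 1) and Serpina3g-202 (26.7% and 26.6%).

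For Serpinf1, the transcript with the largest TPM share was one that M21 annotates as a target of nonsense-mediated decay. Serpinf1-208 held 38.2% in replicate 2 and 38.5% in replicate 1, Serpinf1-202, a coding fragment of 605 bases, held 33.3% and 31.1%, and the full-length coding form Serpinf1-201 held 21.7% and 19.5%. Transcripts that M21 does not class as protein coding summed to 44.8% of the gene in replicate 2 and 49.1% in replicate 1. Counted in fragments, Serpinf1-201 led, with 1928 expected counts in replicate 2 and 2545 in replicate 1, against 1600 and 2391 for Serpinf1-208. The TPM share gives a short form more weight per fragment, so the order depends on the unit. In Serpinb6b the decay target Serpinb6b-201 held 39.0% in replicate 2 and 32.8% in replicate 1, beside the coding forms Serpinb6b-202 (30.6% and 38.4%) and Serpinb6b-203 (30.5% and 28.8%). Their order differed between the libraries. The printed loop of Serpinb6b lies in both Serpinb6b-201 and Serpinb6b-202. In Serpinb8, Serpinb8-201 held 32.6% in replicate 2 and 34.2% in replicate 1, Serpinb8-203, of 373 bases, 27.8% and 33.9%, Serpinb8-202 28.7% and 24.2%, and the retained intron form Serpinb8-204 10.9% and 7.66%. Counted in fragments the leader was Serpinb8-202, with 968 expected counts in replicate 2 and 769 in replicate 1, against 703 and 694 for Serpinb8-201. Serpinb8-203 had only 34.6 and 42.9 expected counts, so its TPM share rests on few fragments.

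Spliced reads on the mm9 assembly, summed by the authors over both libraries, were most numerous in the 3 genes of highest TPM. Junctions marked as annotated held 74623 reads in Serping1, 42355 in Serpinh1 and 21800 in Serpinb6a, and at least 435 in each detected member. In members under 1 TPM they held at most 83 reads. Of the 15 members with no expected count, 1 had a junction read, a single one. All 119 annotated serpin junctions with at least 10 reads had the length of an intron of the same gene in M21. Of the 33 junctions not marked as annotated with as many reads, 7 had such a length. The largest of these was in Serpinh1, with 9224 reads, 59.9% of the strongest annotated junction of the gene. It spanned 3588 bases, the length of an intron of the gene in M21. In Serpinb5, 401 reads spanned 849 bases, also the length of an intron of that gene in M21. Introns were matched by length and not by position.

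A junction of Serpina3n with 616 reads had no intron of its length in M21. This junction spanned 1862 bases and shared one end with an annotated intron of 1858 bases that had 1432 reads. It was thus the longer by 4 bases, and it took 30.1% of the reads of the pair. In Serpina3g, 76 reads spanned an intron of 1416 bases that matched no annotated length, against 60 reads for the annotated intron with which it shared an end. Serping1 had a minor form of the same kind, with 71 reads and a shift of 5 bases, or 5.58% of its pair. Junction reads are the authors' sums over both libraries, so no spread is given for these forms.

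Near-identical copies limit how well single serpin genes can be measured. Stretches of 101 bases, the read length, that were also present in another member were found in all 8 genes with a coding sequence whose expected counts were not whole numbers in a library, and in 10 of the 54 others. In those 8 genes they made up 1.94% to 58.2% of the stretches. Of the 15 detected members, 14 shared no such stretch with another, and the exception was Serpina3g, with 2.43%. Only M21 transcripts of serpin genes were compared, so copies elsewhere in the genome are not covered. The values of Serpina1a to Serpina1d, Serpina3f, Serpina3g, Serpina3h, Serpinb2 and Serpinb10 are uncertain to the extent that reads were divided among copies.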

How the data were processed

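The authors deposited, for each of the 2 libraries, a table of genes and a table of transcripts, on mm10 with GENCODE M4. Per the file headers these hold expected counts (fragments as estimated, not always whole numbers), TPM both by maximum likelihood and as posterior means, the percent of a gene's TPM in each transcript, and upper and lower bounds of TPM, a signal value used here only to describe the files. Across both libraries the authors deposited mm9 RPKM per Ensembl gene, whose 2 values carry no replicate label and were averaged, and junction read counts summed over both libraries. A junction was taken as annotated from the flag A in its deposited name. Aligner, counter and strand settings were not given in the sources used here.

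Symbols came from a gene name table (42462 of 43346 Ensembl rows matched), and positions, transcript names, coding sequences and intron lengths from GENCODE M21. Rows that were not Ensembl gene rows, with 5.98% of the total in replicate 2 and 5.01% in replicate 1, were not used. Ensembl rows without a matched symbol stayed in the background of all 43346 rows. A gene was detected at 1 TPM or more in both libraries. Ratios used a pseudocount of 0.5 TPM and genes averaging 1 TPM or more, and a gene was called at 2-fold. With 1 group no test was run. Alternatives used CPM with TMM factors (edgeR 4.0.16), size factors (DESeq2 1.42.0), both in R 4.3.3 on expected counts rounded to whole numbers, and other thresholds, pseudocounts and units. Other steps used Python 3.11.15, pandas 2.3.3, numpy 2.4.6, biopython 1.88 and matplotlib 3.10.9.

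Identity is the percent of equal bases over aligned coding bases. The hinge was searched in the last 110 residues. Members, lists, pairs and thresholds were chosen with earlier results of these data known. Named are all members averaging 1 TPM or more, members with 20 counts or described relatives, the 3 highest genes of each pathway list and those under 1 TPM in both libraries, and transcripts with at least 10% of a gene of at least 5 TPM. One listed gene, Klkb1, matched no row and is not analysed here. For 1 detected member no values of its own are reported here, but counts, sums and medians over the members include it.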

Additional observations from a re-analysis of the deposited data

How the results depend on the processing

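The count of 15 detected serpin genes became 17 at 0.5 TPM, 12 at 5 TPM, 12 by mm9 RPKM of at least 1, 15 by posterior mean TPM and 15 at 1 CPM, and lay between 15 and 16 when a library was left out. The share of gene TPM (0.141%) moved beyond the spread between libraries in 3 settings, to 0.168% as a share of expected counts, 0.169% with mitochondrially encoded genes removed and 0.178% by mm9 RPKM. It was 0.141% by posterior mean TPM and between 0.134% and 0.148% with a library left out. The count of serpin genes 2-fold apart was 0 in all 8 alternatives run. The alternative with no filter kept the pseudocount of 0.5 TPM, so it does not speak for low members. Under it Serpina1e, with 4 counts in replicate 2 and 26 in replicate 1, had a log2 ratio of −0.57. The median serpin ratio lay between −0.05 and 0 in 7 alternatives. The median of all genes was 0.08 on TPM and 0.02 with TMM or DESeq2 factors, and the serpin median relative to it was −0.11 on TPM and −0.02 with either set of factors. No log2 ratio of a gene pair changed sign in 96 recalculations, and 17 moved beyond the spread between libraries, 9 of them with mm9 RPKM, among them Serping1 over C1s1 (0.62) and over C1ra (1.72) and Serpinh1 over Col3a1 (−1.01). Mean TPM moved in 1 of 45 recalculations, for Serpini1 (2.36 TPM by posterior mean), and leading transcript shares moved in 12 of 48, 8 of them as shares of expected counts. The cause of these moves was not tested. With a library left out, a value cannot leave the spread between the 2. In the 15 mean TPM, 16 ratio and 12 share recalculations for each library left out, no move was thus possible. No paired analysis was possible because both libraries belong to a single group. Depth limits the members under 1 TPM, for which a few counts set the order.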
